A study of Mus musculus with 2 samples.

Results

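Leukocyte and inflammatory microRNAs are a small set of short regulatory RNAs made mainly by blood-derived immune cells or induced by immune signals, and their 7 mouse genes were read here in heart tissue. The genes are Mir142, Mir142b, Mir223, Mir150, Mir155, Mir146 (the gene of miR-146a) and Mir146b, chosen by their GENCODE M21 names from the 2202 microRNA genes counted. MicroRNA sequencing of total RNA selected for short fragments gave 1 library from each of 2 hearts. Both came from male B6CASTF1/J mice aged 10 days, first-generation hybrids of the C57BL/6J and CAST strains. The libraries carry biological replicate numbers 2 and 1 and form 1 group, with no treatment, mutant or other tissue to set against them. Both samples share a donor identifier in the labels but have sample identifiers of their own, and on the strength of the sample identifiers they were taken as separate animals.

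A microRNA gene is transcribed as a hairpin, from which a short mature strand is cut and loaded into a silencing complex. The mature strand pairs with messenger RNAs mainly through its seed, the bases 2 to 8. The miR-142 hairpin is known as a product of nearly all blood cell lineages, miR-223 of myeloid cells such as neutrophils, and miR-150 of mature lymphocytes, where it represses Myb. The other genes are known as inducible ones: miR-155 is raised in activated lymphocytes and macrophages, and miR-146a and miR-146b are induced by NF-κB signalling and dampen it through Traf6 and Irak1. Stimulated endothelial cells also make miR-155 and miR-146a.

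The mature sequences show which members resemble each other, and they are printed 5′ to 3′ from RefSeq (GRCm38.p6) with the seed in capitals. All 7 genes matched that table, with 12 mature entries in all, and Mir150 entered the comparison with mmu-miR-150-3p alone.

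mmu-miR-146a-5p: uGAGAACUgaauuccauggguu
mmu-miR-146b-5p: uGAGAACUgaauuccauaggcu
mmu-miR-142a-5p: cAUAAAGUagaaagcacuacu
mmu-miR-142a-3p: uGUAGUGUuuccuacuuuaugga
mmu-miR-142b: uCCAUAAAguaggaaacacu
mmu-miR-223-3p: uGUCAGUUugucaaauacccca
mmu-miR-155-5p: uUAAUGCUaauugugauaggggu
mmu-miR-150-3p: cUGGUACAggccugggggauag

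Among these 12 entries, miR-146a-5p and miR-146b-5p had a seed in common (GAGAACU), and no further entry of the table had a seed of any of the 12. These mature strands were identical at 20 of 22 bases and differed by G18A and U21C, counted from the 5′ end with the miR-146a-5p base first. None of the 12 mature sequences was held whole by another of the 2202 counted hairpins. Each was 20 to 23 bases long, so no length scaling was applied to counts per gene. Whether reads of different sequences were captured equally well was not tested, so ratios between genes are ratios of counts alone.

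The libraries held 6305782 counts on the gene strand of microRNA genes in replicate 2 and 3748432 in replicate 1. Levels are given as CPM, counts scaled to 1000000 per library. A limit of 3 counts was set for a count of 0. It equals 0.476 CPM in the deeper replicate 2 and 0.8003 CPM in replicate 1. Intervals are exact Clopper-Pearson 95% intervals and cover counting error only, since amplified reads are not independent molecules. Reads that mapped to more than 1 place were listed in an entry of their own outside the gene counts, and they were 48.1% of reads in replicate 2 and 36.8% in replicate 1. As markers of the tissue, the cardiac muscle genes Mir208a, Mir208b and Mir499 took 1.23% of counts in replicate 2 and 0.827% in replicate 1. None of the 3 was at 0, although single genes of the 3 differed in opposite directions. The striated muscle genes Mir133a-1, Mir133a-2 and Mir133b were low, at 27, 4 and 10 counts in replicate 2 and 10, 2 and 6 in replicate 1. Whether their reads were among those with several positions was not tested.

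Together the 7 genes took 0.304% of the counts in replicate 2 (interval 0.2997% to 0.308%) and 0.295% in replicate 1 (0.289% to 0.3003%). In heart tissue, fewer cells of a type and less RNA per cell cannot be told apart. Of the 7 genes, 5 were detected, meaning 10 or more counts in each library, among 340 detected genes in all. Mir146b and Mir142b stayed below that minimum.

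The inducible gene Mir155 led the set in counts. Mir155 (ENSMUSG00000065397.1, chr16:84714140-84714204, plus strand, mm10) lies within an exon of its host transcript Mir155hg. It had 7511 counts or 1191 CPM in replicate 2, and 5359 counts or 1430 CPM in replicate 1, a mean of 1310 ± 169 CPM (here and below SD, n = 2). Its mean level ranked 65 among the 2202 genes. Mir146 (ENSMUSG00000065601.1, chr11:43374397-43374461, minus strand) overlaps no other annotated gene. It had 5337 counts or 846 CPM in replicate 2, and 3703 counts or 988 CPM in replicate 1, and ranked 79 by a mean of 917 ± 100.1 CPM. In CPM both inducible genes were somewhat lower in replicate 2, and the ranges of Mir155 and Mir146 did not overlap.

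Mir150 (ENSMUSG00000065495.1, chr7:45121757-45121821, plus strand), the lymphocyte gene, overlaps no other annotated gene. It had 4239 counts or 672 CPM in replicate 2, and 1471 counts or 392 CPM in replicate 1, with a mean of 532 ± 198 CPM and rank 90. Mir142 (ENSMUSG00000105196.1, chr11:87756864-87756927, plus strand) lies inside Mir142hg but not within one of its exons. It had 1571 counts or 249 CPM in replicate 2, and 437 counts or 117 CPM in replicate 1, with a mean of 183 ± 93.7 CPM and rank 135. The myeloid gene Mir223 (ENSMUSG00000076066.1, chrX:96242817-96242926, plus strand) lies within an exon of the non-coding transcript F630028O10Rik. It had 504 counts or 79.9 CPM in replicate 2, and 77 counts or 20.5 CPM in replicate 1, with a mean of 50.2 ± 42.0 CPM and rank 189. All 3 blood lineage genes were higher in replicate 2.

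Both libraries gave the same order of levels, Mir155, Mir146, Mir150, Mir142, Mir223 and Mir146b, and the ranges of neighbours in that order did not overlap. The median of the 340 detected genes was 80.03 CPM, so 4 of the 7 members had a mean level above it. The low level of Mir223 sits beside that of Mir122, the hepatocyte microRNA, which a heart should lack. Mir122 reached 77.7 CPM in replicate 2, against 57.9 CPM in replicate 1, and the part of RNA from outside the heart in the Mir223 counts was not tested.

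**Figure D1:**
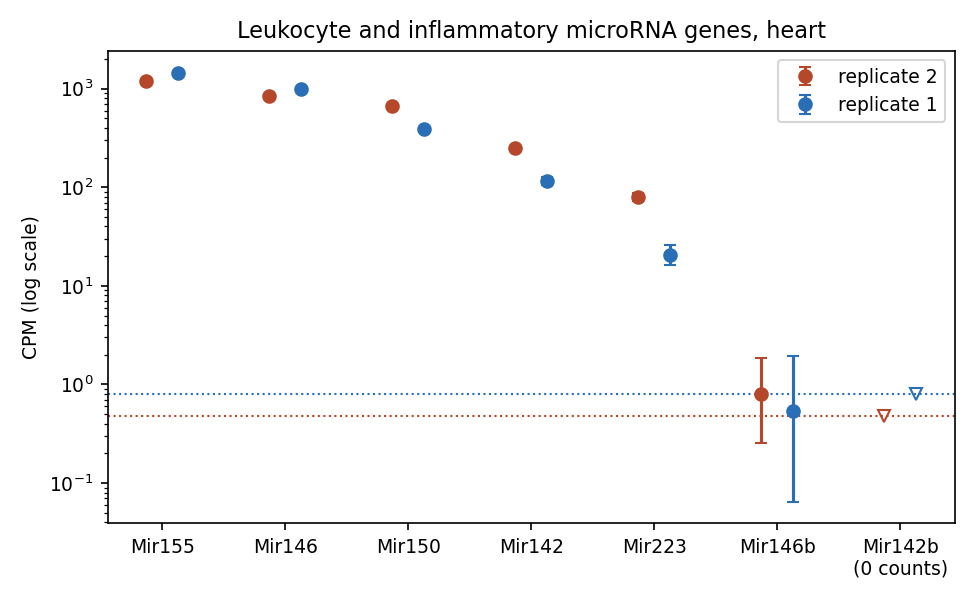
Level of each member in CPM on a log axis, replicate 2 left of replicate 1, with exact 95% counting intervals as bars (1 library per point). Dotted lines and open triangles mark 3 counts in each library, the limit for Mir142b, which had 0 counts, and Mir155 to Mir223 fall in the same order in both libraries.

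Mir146b was nearly absent although its mature strand has the seed of miR-146a. Mir146b (ENSMUSG00000070127.2, chr19:46342762-46342870, plus strand), inside the protein-coding gene Mfsd13a but not within an exon, had 5 counts in replicate 2 and 2 in replicate 1. Those counts equal 0.793 and 0.534 CPM, around the limit of 3 counts. Of the counts of Mir146 and Mir146b together, Mir146b took 0.0936% in replicate 2 (interval 0.0304% to 0.218%) and 0.05398% in replicate 1 (0.00654% to 0.195%). Mir146 therefore had 1067 times the counts of Mir146b in replicate 2 (interval 457 to 3289) and 1852 times in replicate 1 (512 to 15294). The hairpins are printed to show how far a short read could fit both, with their longest shared stretch, 21 bases, in capitals.

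Mir146 hairpin, chr11:43374397-43374461, minus strand: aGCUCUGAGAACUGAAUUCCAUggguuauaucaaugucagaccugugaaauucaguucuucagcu
Mir146b hairpin, chr19:46342762-46342870, plus strand: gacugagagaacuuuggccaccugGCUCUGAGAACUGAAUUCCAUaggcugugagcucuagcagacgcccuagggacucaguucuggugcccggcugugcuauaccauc

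Within the mature strands the shared stretch was 17 bases, and both differing bases lie beyond it. A read of miR-146a-5p or miR-146b-5p cut short before base 18 holds no base that tells the genes apart, and where it mapped to both places it would be among the reads outside the gene counts. The share of such reads from this pair was not tested.

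At the Mir142 locus all assigned reads came from 1 strand. Mir142b (ENSMUSG00000065420.2, chr11:87756841-87756955, minus strand) is annotated opposite Mir142, and all 64 bases of Mir142 lie inside it. Mir142b had 0 counts on its own strand in each library. The limit of 3 counts equals 0.476 CPM in replicate 2 and 0.8003 CPM in replicate 1. The exact 95% intervals of Mir142b reached 0.585 CPM in replicate 2 and 0.984 CPM in replicate 1. Set against 3 counts, Mir142 was 524-fold higher in replicate 2 and 146-fold higher in replicate 1. The exact 95% intervals of its ratio to Mir142b began at 425 in replicate 2 and 118 in replicate 1. The hairpins of the opposed genes are printed with the mature strands in capitals.

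Mir142 hairpin, chr11:87756864-87756927, plus strand: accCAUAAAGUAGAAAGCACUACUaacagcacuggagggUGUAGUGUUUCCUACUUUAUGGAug
Mir142b hairpin, chr11:87756841-87756955, minus strand: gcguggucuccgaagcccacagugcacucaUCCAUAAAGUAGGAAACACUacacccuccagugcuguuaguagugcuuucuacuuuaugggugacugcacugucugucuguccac

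All 20 bases of miR-142b are identical to the reverse complement of miR-142a-3p. Set from its own base 3 onward against miR-142a-5p, miR-142b was identical at 16 of 18 bases and differed by G13A and A16G, counted from the 5′ end of miR-142b with its base first. The deposited tables hold a column for each strand and one for both strands together. In the column for both strands Mir142 had 0 counts in each library, against 1571 and 437 on its own strand, so the level of this gene rests on the column chosen. The other 4 detected members had the same counts in both columns and 0 counts on the opposite strand.

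**Figure D2:**
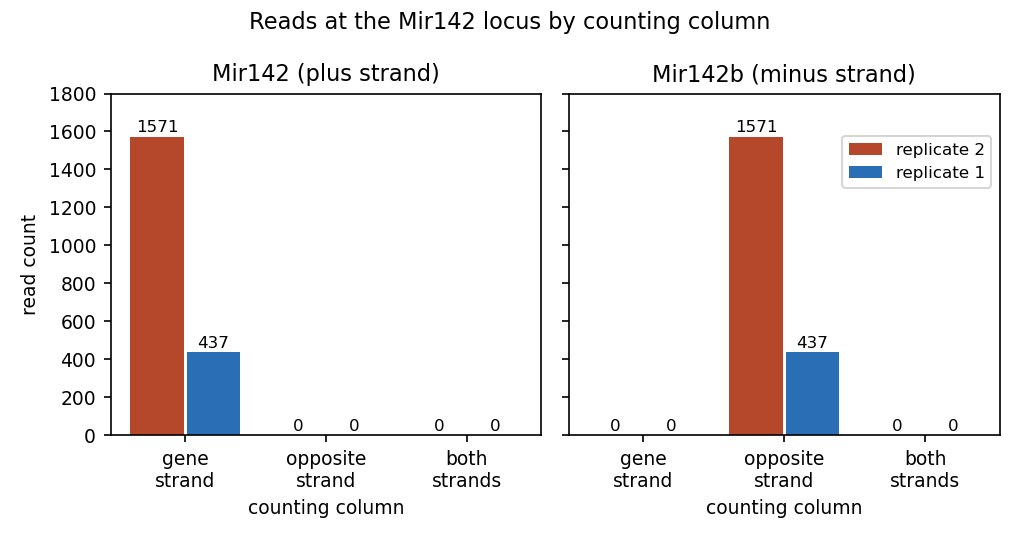
Read counts of Mir142 (left panel) and Mir142b (right panel) in the 3 deposited counting columns, replicate 2 left of replicate 1 (1 library per bar). The 1571 and 437 reads on the gene strand of Mir142 are those on the opposite strand of Mir142b, and the column for both strands holds 0 for both genes.

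The blood lineage genes differed more between the libraries than the inducible genes did, with counting intervals of their ratios that did not overlap. Ratios of replicate 2 over replicate 1 are given on the log2 scale after TMM scaling, which moved all ratios by 0.14 against total counts. A two-sided exact binomial test compared each gene's counts with the scaled library sizes, and p-values were adjusted over the 340 detected genes by Benjamini-Hochberg. This test compares 2 libraries, not conditions, and holds counting error only. It called 72.1% of the genes tested, so a call says little by itself, and the sizes are what is described.

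Mir223 was 4.27-fold higher in replicate 2, with a log2 ratio of 2.09 (interval 1.75 to 2.47). Only 2.06% of the detected genes had a log2 ratio at least as high. Mir142 was 2.36-fold higher, with a log2 ratio of 1.24 (1.08 to 1.39), and 7.35% of the detected genes reached that value. Mir150 was 1.89-fold higher, with a log2 ratio of 0.92 (0.83 to 1.01), reached by 11.5% of the detected genes. By the exact binomial test the adjusted p was 7.74e-44 for Mir223, 2.56e-64 for Mir142 and 1.03e-106 for Mir150.

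Mir155 and Mir146 lay close to 0. Mir155 was 1.09-fold lower in replicate 2, with a log2 ratio of -0.12 (interval -0.17 to -0.07) and an adjusted p of 5.8e-06 by the exact binomial test. Mir146 was 1.06-fold lower, with a log2 ratio of -0.08 (-0.14 to -0.02) and an adjusted p of 0.0139 by that test. With DESeq2 size factors as the scaling, neither passed that binomial test, at an adjusted p of 0.127 for Mir155 and 0.943 for Mir146. Over the alternatives run, the adjusted p of the binomial test lay between 9.94e-24 and 0.127 for Mir155 and between 1.63e-12 and 0.943 for Mir146. Of the detected genes, 90.9% differed by at least as much as Mir155 in either direction, and 92.9% by at least as much as Mir146.

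Of all tested genes, 34.1% were called higher in replicate 2 and 37.9% lower. Of the 5 detected members, 3 were called higher and 2 lower. With DESeq2 size factors the split was 3 higher and 0 lower, beside 124 higher and 113 lower among the 340 tested genes. Mir223 and Mir142 were called at 2-fold or more, as were 10.3% of tested genes in that direction. The median log2 ratio of the 5 detected members was 0.92, beside -0.05 over all tested genes, and it describes the 3 lineage genes rather than the inducible ones.

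**Figure D3:**
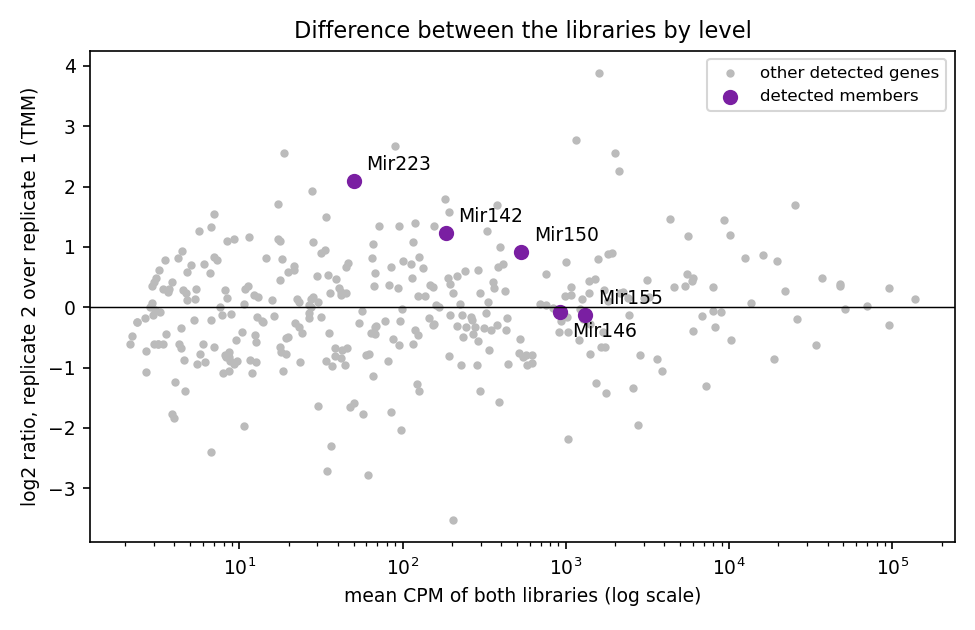
Log2 ratio of replicate 2 over replicate 1 after TMM scaling against mean CPM (log axis) for the 340 detected genes, 1 point per gene, with the 5 detected members in purple. Mir223, Mir142 and Mir150 sit at 2.09, 1.24 and 0.92 on the log2 scale, and Mir155 and Mir146 at -0.12 and -0.08.

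The makeup of the set shifted accordingly. Mir142, Mir142b, Mir223 and Mir150 made up 32.9% of the members' counts in replicate 2 and 18.0% in replicate 1. Mir155, Mir146 and Mir146b made up 67.1% in replicate 2 and 82.0% in replicate 1. The counts of Mir155 were 4.78 times those of Mir142 in replicate 2 (interval 4.53 to 5.05) and 12.3 times in replicate 1 (11.1 to 13.6). Against Mir223 they were 14.9 times in replicate 2 (13.6 to 16.3) and 69.6 times in replicate 1 (55.6 to 88.3). Within the inducible pair the ratio of Mir155 to Mir146 was 1.41 in replicate 2 (1.36 to 1.46) and 1.45 in replicate 1 (1.39 to 1.51), so these intervals overlapped. These ratios within a library do not depend on the scaling between libraries.

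Markers of red cells and of heart muscle did not show 1 direction beside the lineage genes. The erythroid genes Mir451a, Mir144 and Mir486 summed to 8848 CPM in replicate 2, against 10216 CPM in replicate 1, and none of the 3 was at 0. Mir451a, which matures in red cell precursors without Dicer, had a log2 ratio of -0.07, its cluster partner Mir144 one of 0.66, and Mir486 one of -0.96. The cardiac muscle genes also parted, with log2 ratios of 2.26 for Mir208b, 1.18 for Mir499 and -1.34 for Mir208a, sizes like those of the lineage genes. The part of blood left in the hearts or of a difference in heart muscle in the levels of the lineage genes was not tested. The endothelial gene Mir126a, with 100563 CPM in replicate 2, against 88956 CPM in replicate 1, had a log2 ratio of 0.32. The smooth muscle genes Mir143 and Mir145a were both higher in replicate 2, with log2 ratios of 0.38 and 0.81.

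Other microRNAs linked to leukocytes moved in both directions between the libraries, as did the tested genes as a whole. Of a list of 10, all matched and 9 were detected. By the binomial test 3 of the 9 were called higher in replicate 2, 5 were called lower and 1 was not called. Among all tested genes 34.1% were called higher and 37.9% lower. The median log2 ratio of the 9 was -0.29. Mir342, known in lymphoid and myeloid cells, was more abundant than any of the 7 members. Mir342 stood at 1950 CPM in replicate 2, against 3749 CPM in replicate 1, a log2 ratio of -0.80 (interval -0.84 to -0.77), opposite to that of Mir142, Mir223 and Mir150. Mir511, encoded in the macrophage gene Mrc1, had 38 counts in replicate 2 and 42 in replicate 1, with a log2 ratio of -0.75 (-1.42 to -0.08). Mir187 (-1.39), Mir326 (-0.95) and Mir132 (-0.29) were also lower by log2 ratio.

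Mir21a, which is induced in activated leukocytes and fibroblasts alike, was higher at 6146 CPM in replicate 2, against 2474 CPM in replicate 1. Its log2 ratio was 1.46. Mir125a and the T cell gene Mir181a-1 were higher by log2 ratios of 0.43 and 0.599. Mir181b-1 had a log2 ratio of 0.31 and did not pass (interval -0.27 to 0.92). Mir147, induced by Toll-like receptors in macrophages, had 2 counts in replicate 2 and 6 in replicate 1 and was not tested.

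**Figure D4:**
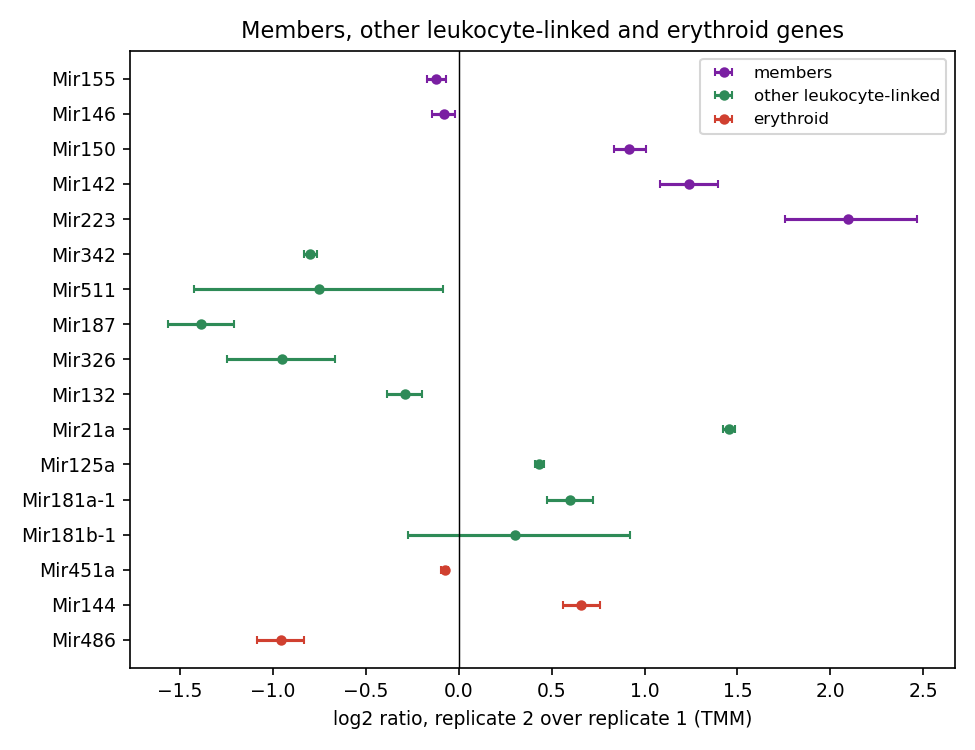
Log2 ratio of replicate 2 over replicate 1 after TMM scaling (horizontal axis) with exact 95% counting intervals for the 5 detected members, 9 other leukocyte-linked genes and 3 erythroid genes. Mir223, Mir142 and Mir150 lie right of 0, and Mir342, Mir511, Mir187, Mir326 and Mir132 lie left of 0.

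A pattern over 2 libraries is a single ratio, so likeness was taken as level alone, the detected genes next above and next below each member in mean CPM. Mir155 stood between Mir10a (1378 CPM) and Mir484 (1280 CPM), and Mir146 between Mir10b (929 CPM) and Mir328 (907 CPM). Mir150 stood between Mir483 (542 CPM) and Mirlet7a-1 (519.99 CPM), Mir142 between Mir1306 (191 CPM) and Mir101b (181 CPM), and Mir223 between Mir138-1 (50.6 CPM) and Mir34c (47.4 CPM). Genes alike in level could still differ in ratio. The neighbours of Mir223 had log2 ratios of -1.60 (Mir138-1) and -1.66 (Mir34c), whereas that of Mir223 was 2.09.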

How the data were processed

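Small RNA from 2 hearts was sequenced as 1 library each. Each library has its own table of raw read counts over microRNA genes, deposited by the authors without normalization. The build was mm10 and the annotation GENCODE M21, per the text deposited with the tables. The aligner was not given in the sources used here, nor was the counting program. The 3 count columns were read from their values as both strands, gene strand and opposite strand, and the gene strand was used. A further 4 entries name no gene and were left out of library sizes: unmapped reads (11.5% of reads in replicate 2, 16.0% in replicate 1), reads with several positions (48.1%, 36.8%), reads outside genes (3.43%, 4.78%) and ambiguous reads (0 on the gene strand).

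CPM used the gene-strand totals, without TMM. Log2 ratios used edgeR 4.0.16 TMM factors over all genes with a count, a prior of 0.5 counts and an exact binomial test (scipy 1.17.1), with Benjamini-Hochberg adjustment at 0.05 over genes with 10 or more counts in each library. No test of a condition was possible. DESeq2 1.42.0 size factors were an alternative. Sequences came from RefSeq (GRCm38.p6), whose hairpin places and letters equalled those of GENCODE for the 4 hairpins printed. Named genes were all members, their neighbours in level and the listed leukocyte-linked and marker genes. Mir486 was matched through a synonym. Members and lists were chosen with earlier results of these data known.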

Additional observations from a re-analysis of the deposited data

Results flagged for a closer look

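Mir142b drew attention through a column outside the main measurement. It held 1571 reads on the opposite strand in replicate 2 and 437 in replicate 1, above the limit of 3 counts, while its own strand held 0. These numbers equal the counts of Mir142 on its own strand in the same libraries, and all 64 bases of Mir142 lie inside Mir142b, so no separate signal of Mir142b was measured.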

How the results depend on the processing

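No paired analysis was possible because both libraries belong to 1 group. The share of counts in the 7 genes, 0.299% as a mean of both libraries, was 0.386% in the column for both strands, whose totals leave out reads of overlapping genes, and 0.119% with all reads as the denominator. Without either replicate it ran from 0.295% to 0.304%. The 5 calls among members became 3 with DESeq2 size factors, where Mir155 and Mir146 lost theirs, beside 237 calls among the 340 genes tested. In the column for both strands 3 members were called, beside 220 of the 316 genes tested. Mir142 was not tested in that column, and Mir146 had an adjusted p of 0.0518 by the exact binomial test. Member calls became 4 with TMM over the tested genes alone, beside 242 of the 340 genes tested. That alternative was chosen after seeing the data, and Mir146 had an adjusted p of 0.129 in it by the exact binomial test. Minimums of 3 or 30 counts also left 5 detected members. Mir223, Mir142 and Mir150 were higher in replicate 2 under each scaling, at log2 ratios of 1.95 to 2.17, 1.09 to 1.31 and 0.78 to 0.996. Over all genes, calls ranged from 220 to 252, but the sets of genes tested differed in size. With at least 30 counts in both libraries, 230 of 277 genes tested were called. With no filter beyond 1 count in either library, 252 of 733 were called, so the share called depended strongly on the filter. With 2 libraries, spread between animals cannot be estimated well, and Mir146b and Mir142b were too shallow for a ratio.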
